A study of Xenopus laevis with 20 samples.

Results

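The Gata transcription factors described here are all genes whose annotated symbol on the array is gata followed by a number from 1 to 6, with either copy. The rule found 15 probe sets for 10 gene copies, among 32539 probe sets without controls. A probe set is a group of short oligonucleotides that together report 1 transcript, and its value here is a log2 intensity. No probe set carried the symbol gata2.S or gata3.L, and whether the probes for the other copy also bind those transcripts was not tested.

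Gata proteins are zinc finger transcription factors that bind a short DNA motif from which they take their name. Members 1 to 3 are best known from blood and from ectoderm, and members 4 to 6 from endoderm and heart. In frog embryos gata2 responds to BMP signals in the ventral side and in the non-neural ectoderm, the tissue that faces the neural plate across the border where neural crest and placodes form. Xenopus laevis keeps an .L and an .S copy of most genes from its past genome duplication.

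Of the 15 probe sets, 7 passed the filter of log2 4 or more on at least 5 of 20 arrays, and these stand for 5 copies (gata2.L, gata3.S, gata5.S, gata6.L and gata6.S). The other 8 were described and not tested. The probe set for gata5.S reached log2 4 on only 4 arrays outside the GR group, so it passed through the group in which it is highest. It is described apart, and counts are over the other 6 tested probe sets.

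The study asked which genes Pax3 and Zic1, transcription factors of the neural plate border, act on. Embryos were injected at the stage of 2 cells with mRNA for both Pax3GR and Zic1GR (called the combination below), for Pax3GR, for Zic1GR, or for the glucocorticoid receptor (GR) as the control. Pax3GR and Zic1GR are hormone-inducible forms, and every group, GR included, was kept in dexamethasone for 8 h after animal caps (prospective ectoderm) were cut at stage 9. Each of the 4 groups held 5 arrays of single explants, and wild-type caps or caps without hormone were not analysed here. The labels do not say whether explants came from separate clutches, so p-values measure the spread between these explants.

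The arrays were alike in range, with medians from log2 6.10 to 6.30 and between 18949 and 19239 probe sets at log2 4 or more. The array least like its own group was Pax3GR replicate 1, with a mean correlation of 0.881 against 0.976 for the array most like its group. Of the injected genes, pax3.S averaged 12.92 in the combination, 13.27 in Pax3GR, 10.01 in Zic1GR and 2.36 in GR (Xl2.49495.3.S1_x_at), and zic1.S averaged 13.78, 13.98, 12.56 and 7.69 in the same order (Xl2.1796.1.S2_at). Each gene was thus high also in the group injected with the other one, so these probe sets separate the injected groups from GR and do not check which mRNA was injected. All 15 epidermis markers on the array reached log2 4, as did 11 of 28 endoderm markers.

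Against GR, gata2.L and gata3.S fell in explants with Pax3GR, alone or in the combination, while with Zic1GR alone their differences from GR, between -0.91 and -1.24 log2 units, did not pass the test. Of the gata6 copies, gata6.L fell with Pax3GR alone, and gata6.S fell with Zic1GR alone and in the combination. The level of gata5.S was lower than in GR in every injected group. By limma, a linear model fitted across all probe sets, with a p adjusted for their number and under 0.05, 5 of the 6 probe sets other than gata5.S fell in the combination, 5 in Pax3GR and 1 in Zic1GR, where 20.3%, 23% and 22.8% of the 20519 probe sets tested fell. None of the 6 rose against GR, and the intervals of the 2 positive differences, both of gata6.L, hold 0, while 24.6%, 27.3% and 28.6% of all tested rose. The 3 comparisons share the GR arrays.

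**Figure D1:**
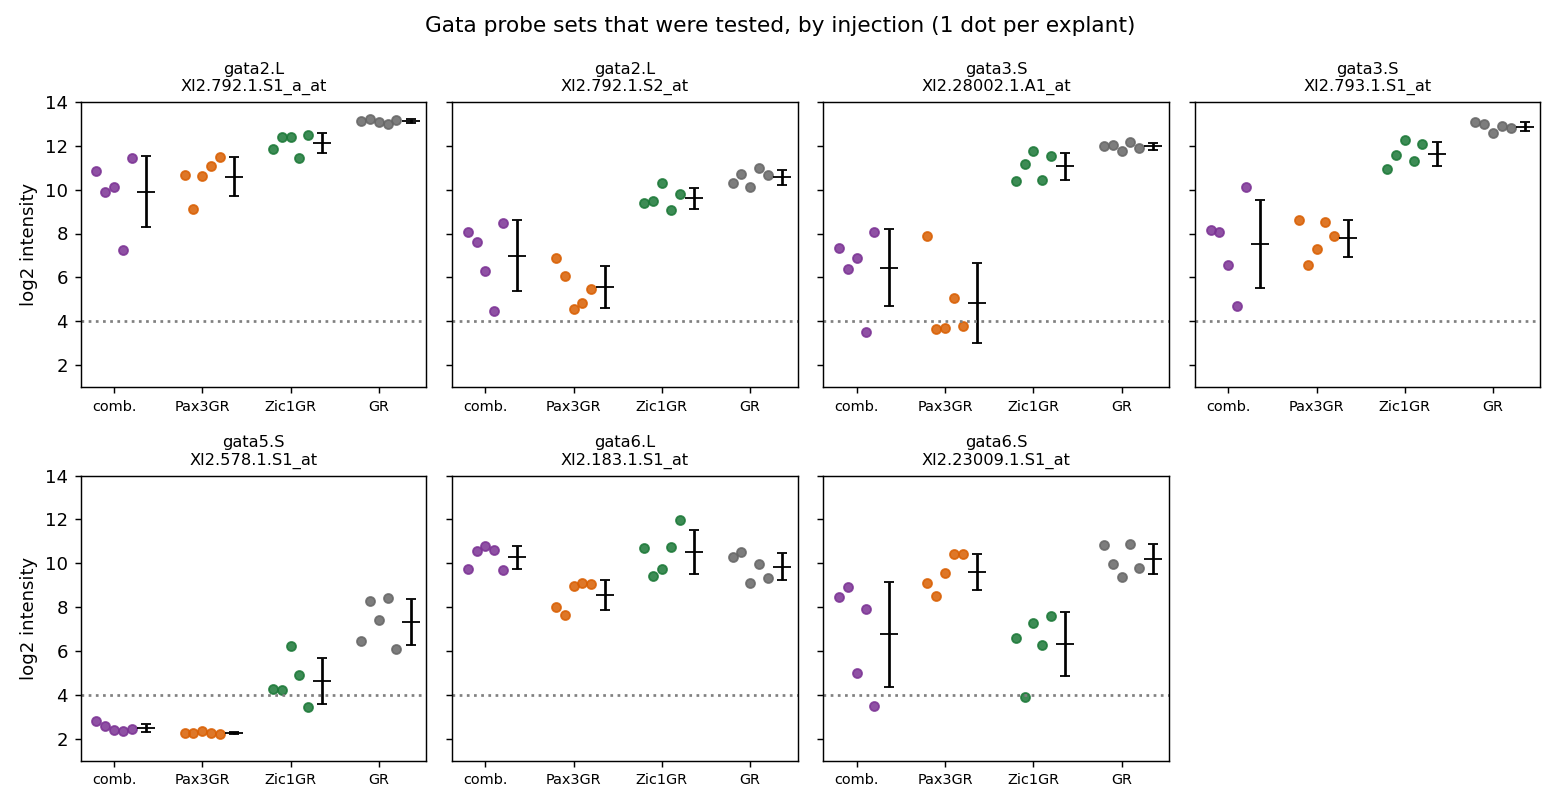
Log2 intensity (y axis) of the 7 tested Gata probe sets in the combination (comb.), Pax3GR, Zic1GR and GR, with 1 dot per explant, mean and SD (bars) of n = 5 beside them, and a dotted line at log2 4, the level used as background. All combination and Pax3GR values of gata2.L and gata3.S lie below all GR values, gata5.S lies below the line in both, and gata6.S is lowest in Zic1GR and the combination.

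The first gata2.L probe set, Xl2.792.1.S1_a_at, read 10.83, 9.91, 10.10, 7.25 and 11.45 in the combination, 10.67, 9.13, 10.64, 11.06 and 11.47 in Pax3GR, 11.84, 12.42, 12.42, 11.45 and 12.48 in Zic1GR, and 13.13, 13.22, 13.08, 12.99 and 13.16 in GR. No value of an injected group reached the lowest GR value, and the SD was 1.61 in the combination and 0.086 in GR. In such bulk samples fewer cells of a type and less RNA per cell cannot be told apart. This probe set fell by 3.21 ± 0.57 (SE) in the combination against GR (9.25-fold lower, adjusted p = 0.000231). In Pax3GR it fell by 2.52 ± 0.57 (5.75-fold lower, adjusted p = 0.00135).

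With Zic1GR alone the difference of Xl2.792.1.S1_a_at from GR was -0.995 ± 0.57, with a 95% interval from -2.20 to 0.21 and adjusted p = 0.155. That test uses a spread shared by all 4 groups. When only the Zic1GR and GR arrays were fitted, the same difference had adjusted p = 0.0025, and 56.4% of all probe sets were called in that fit.

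The second gata2.L probe set, Xl2.792.1.S2_at, ranged from 4.48 to 8.46 in the combination, 4.55 to 6.88 in Pax3GR, 9.06 to 10.29 in Zic1GR and 10.12 to 10.96 in GR. It fell by 3.57 ± 0.59 in the combination (11.9-fold lower, adjusted p = 0.000115) and fell by 4.997 ± 0.59 in Pax3GR (31.9-fold lower, adjusted p = 2.23e-06). With Zic1GR alone the difference was -0.95 ± 0.59 (adjusted p = 0.189, or 0.0082 from the arrays of those groups alone). The gata2.L probe sets gave the same direction against GR in every injected group, though with Pax3GR the estimates were 5.75-fold and 31.9-fold lower.

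For gata3.S, a factor that is close kin of gata2, the probe set Xl2.793.1.S1_at read 8.15, 8.06, 6.57, 4.68 and 10.10 in the combination, 8.59, 6.57, 7.31, 8.53 and 7.90 in Pax3GR, 10.93, 11.57, 12.25, 11.30 and 12.097 in Zic1GR, and 13.09, 12.97, 12.57, 12.90 and 12.81 in GR. Each injected group lay wholly below GR, and the combination and Pax3GR lay wholly below Zic1GR. This probe set fell by 5.35 ± 0.68 in the combination (40.9-fold lower, adjusted p = 7.56e-06) and fell by 5.09 ± 0.68 in Pax3GR (34-fold lower, adjusted p = 9.48e-06). The difference with Zic1GR alone was -1.24 ± 0.68 (95% interval from -2.68 to 0.20, adjusted p = 0.14, or 0.00236 from the arrays of those groups alone).

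The other gata3.S probe set, Xl2.28002.1.A1_at, ranged from 3.51 to 8.05 in the combination, 3.63 to 7.89 in Pax3GR, 10.41 to 11.74 in Zic1GR and 11.77 to 12.18 in GR. In Pax3GR only 2 of 5 explants reached log2 4, so its level there is close to background. It fell by 5.53 ± 0.78 in the combination (adjusted p = 2.33e-05) and fell by 7.16 ± 0.78 in Pax3GR (adjusted p = 9.09e-07). The difference with Zic1GR alone was -0.91 ± 0.78 (adjusted p = 0.345, or 0.015 from the arrays of those groups alone).

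Pax3GR and Zic1GR were also compared directly, to ask where the factors differ. Of the 6 probe sets 5 were lower in Pax3GR and 1 was higher, where 17% and 17.3% of all probe sets tested were. For gata3.S the Xl2.793.1.S1_at value was lower by 3.85 log2 units in Pax3GR than in Zic1GR (14.4-fold, adjusted p = 0.000301), and for gata2.L Xl2.792.1.S2_at it fell by 4.05 (16.5-fold, adjusted p = 4.5e-05). The gata2.L probe set Xl2.792.1.S1_a_at differed less, by -1.53 ± 0.57 (adjusted p = 0.0472). That last call was lost in 15 of 20 fits that each left out 1 array, with adjusted p up to 0.126, and without the filter (adjusted p = 0.0711).

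Adding Pax3GR to Zic1GR gave lower gata2 and gata3. In the combination against Zic1GR, 4 of 6 probe sets fell, both of gata2.L and both of gata3.S, where 6.25% of all tested fell and 7.05% rose. The gata3.S probe set Xl2.793.1.S1_at fell by 4.12 (17.4-fold lower, adjusted p = 0.000395). The gata2.L values fell by 2.21 for Xl2.792.1.S1_a_at (adjusted p = 0.0142, or 0.0777 from the arrays of these groups alone, where 9.64% of all were called) and by 2.62 for Xl2.792.1.S2_at (adjusted p = 0.00564).

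Adding Zic1GR to Pax3GR gave no call for gata2.L or gata3.S. Against Pax3GR the combination differed by -0.69 (95% interval, not adjusted for the number of tests, from -1.89 to 0.52) for gata2.L Xl2.792.1.S1_a_at and by 1.43 (0.18 to 2.67) for Xl2.792.1.S2_at, so the point estimates of the 2 probe sets had opposite signs. For gata3.S the differences were -0.26 (-1.71 to 1.18) for Xl2.793.1.S1_at and 1.62 (-0.03 to 3.27) for Xl2.28002.1.A1_at. Adjusted p ran from 0.138 to 0.863 over these 4. Without combination replicate 4 the differences of gata2.L Xl2.792.1.S2_at and gata3.S Xl2.28002.1.A1_at were 2.06 and 2.35 and passed (adjusted p = 0.00757 and 0.032), and that of gata3.S also passed without Pax3GR replicate 1, at 2.39 (adjusted p = 0.0193). For both genes GR was highest and Zic1GR next, neighbours that did not differ past the threshold in the fit over all arrays, and the order of the combination and Pax3GR was not settled.

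**Figure D2:**
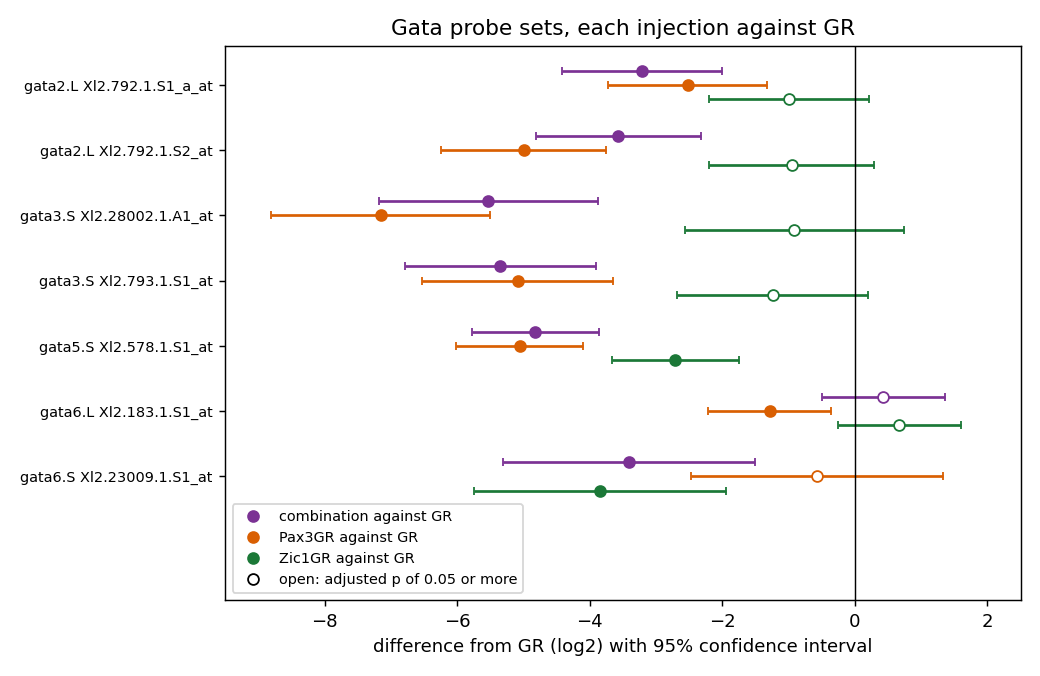
Difference from GR in log2 units (x axis) with its 95% confidence interval for the combination, Pax3GR and Zic1GR, for each tested Gata probe set (y axis). Filled points passed an adjusted p of 0.05. For gata2.L and gata3.S the combination and Pax3GR points are filled and lie between -2.52 and -7.16, and the Zic1GR points are open and lie near -1; gata6.L is filled only for Pax3GR and gata6.S only for the combination and Zic1GR.

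Within groups gata2.L and gata3.S were correlated over explants, less so without combination replicate 4. Combination replicate 4 was the lowest of its group on all 4 probe sets of these genes, and combination replicate 5 was the highest on all 4. After each group's mean was taken out, the correlation of gata2.L Xl2.792.1.S1_a_at with gata3.S Xl2.793.1.S1_at over the 20 arrays was 0.871, and 0.729 without combination replicate 4, as a description over arrays of shared processing. This pair had the highest values. The other pairs of a gata2.L with a gata3.S probe set gave 0.675, 0.790 and 0.785, and 0.377, 0.625 and 0.571 without that explant. The gata2.L probe sets correlated at 0.634 with each other on that scale, and at 0.166 without that explant.

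Epidermal markers were read beside these genes. All 15 epidermis markers on the array were tested, and 7 fell in the combination, 13 in Pax3GR and 6 in Zic1GR, with 1 rise in each, against the shares of 20.3%, 23% and 22.8% of all probe sets that fell. Their mean level per array ran from 10.78 to 12.58 in the combination, 9.60 to 11.93 in Pax3GR, 11.27 to 12.17 in Zic1GR and 12.79 to 13.00 in GR. The lowest and highest combination explants were again replicates 4 and 5. In Pax3GR the order differed, with epidermis means of 11.93, 11.38, 9.94, 9.69 and 9.60 in replicates 1 to 5. There replicate 2 was lowest on gata2.L Xl2.792.1.S1_a_at (9.13) and on both gata3.S probe sets (6.57 and 3.63). On gata2.L Xl2.792.1.S2_at replicate 1 was highest (6.88) and replicate 3 lowest (4.55). The part of epidermal cells in the Gata levels was not tested. Pax3GR replicate 1 had the epidermis mean of 11.93, inside the Zic1GR range, and a gata3.S Xl2.793.1.S1_at level of 8.59, below the Zic1GR range of 10.93 to 12.25. Combination replicate 5 had an epidermis mean above every Zic1GR explant, and its gata3.S level of 10.10 was below all of them. Both are single explants named for their values, and nothing on the part of epidermal cells is read from them.

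**Figure D3:**
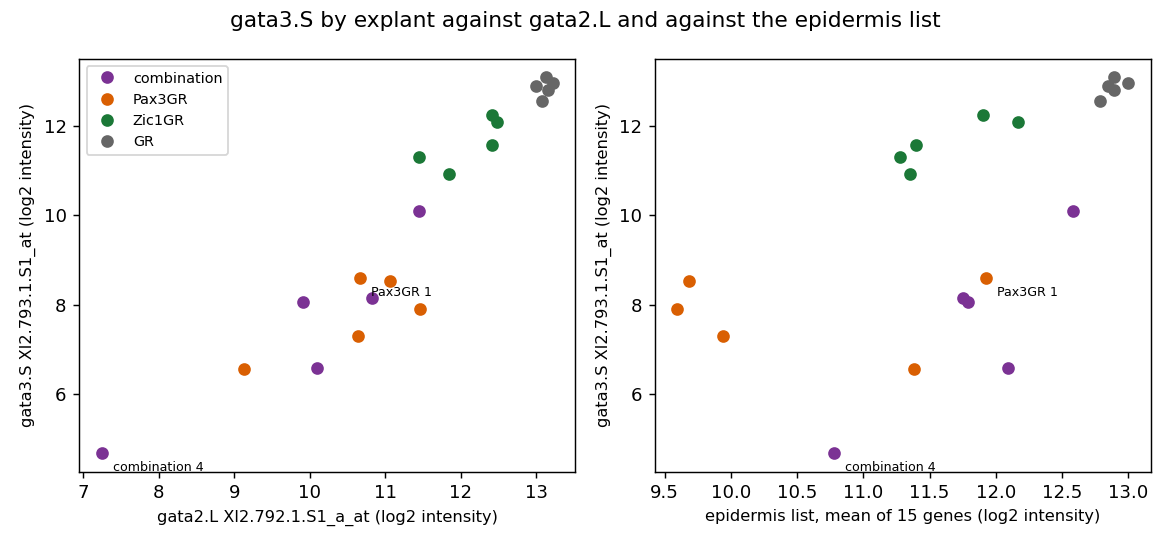
Log2 intensity of gata3.S Xl2.793.1.S1_at (y axis) against gata2.L Xl2.792.1.S1_a_at (left) and against the mean of the 15 epidermis markers (right), 1 point per explant, coloured by injection. Combination replicate 4 is lowest on both Gata axes. The Zic1GR explants have epidermis means of 11.27 to 12.17 and gata3.S from 10.93 to 12.25. The labelled Pax3GR replicate 1 is a single explant, with gata3.S at 8.59.

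Specialised epidermal cells differed too. Ionocyte markers had 0 rises and 9, 10 and 11 falls among 11 tested in the combination, Pax3GR and Zic1GR. Of all probe sets tested 20.3%, 23% and 22.8% fell there. The marker slc26a4.3.S averaged 2.90, 2.75 and 2.80 in those groups and 8.52 in GR. It passed the filter only through GR, so its falls were built in. The markers foxi1.L, ubp1.L and atp6v1g3.L averaged 4.81 or less in every injected group, against 11.60, 11.86 and 12.38 in GR. They may thus have passed through GR too. The markers were not recounted without such members, and nothing is read from the ionocyte counts. Array means of the ionocyte list lay between 4.49 and 6.80, 4.67 and 6.98, and 4.54 and 7.66 in those groups, against 9.77 to 10.47 in GR. In the Zic1GR explants gata3.S Xl2.793.1.S1_at read from 10.93 to 12.25, each below every GR explant. A link between ionocyte markers and gata3.S was not tested. Multiciliated cell markers had 9, 12 and 11 falls among 14 tested, and no rises. Of 4 mucus-secreting cell markers tested 2, 2 and 1 fell, and 1 rose in the combination.

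Regulators of the ventral side and the non-neural ectoderm, among which gata2 is usually counted, were a list of 38 genes of which 29 had a probe set and 28 were tested. In the combination 5 rose and 13 fell, with a median difference of -0.80 against 0.079 over all probe sets tested. In Pax3GR 6 rose and 14 fell (median -0.52 against 0.095), and in Zic1GR 6 rose and 12 fell (median -0.58 against 0.087). Over all probe sets tested 24.6%, 27.3% and 28.6% rose and 20.3%, 23% and 22.8% fell in the combination, Pax3GR and Zic1GR. The secreted BMP feedback inhibitor szl.S was at least 1208-fold lower both in the combination and in Pax3GR. The BMP ligand gene bmp4.S averaged 10.87 in the combination and 10.79 in Pax3GR, against 13.00 in GR, and fell in the combination by 2.13 (adjusted p = 8.38e-07). In Pax3GR smad7.L, an intracellular inhibitor of the pathway, fell by 2.65 (adjusted p = 4.67e-08).

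Not all of that list went down. The homeobox gene dlx6.S rose by 3.11 in the combination, 2.52 in Pax3GR and 3.39 in Zic1GR. With Zic1GR klf17.L rose by 2.201 and tp63.S, known for its role in basal keratinocytes, fell by 5.45, whereas dlx3.L was 13.21 against 13.78 in GR (adjusted p = 0.212). The BMP target id3.L was 13.50 in the combination and 13.57 in Pax3GR, against 13.42 in GR (adjusted p = 0.388 and 0.0949).

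The genes gata4 to gata6 are known from endoderm and heart. The gata5.S probe set Xl2.578.1.S1_at read 2.81, 2.58, 2.40, 2.34 and 2.44 in the combination, 2.29, 2.27, 2.34, 2.26 and 2.23 in Pax3GR, 4.26, 4.22, 6.25, 4.92 and 3.45 in Zic1GR, and 6.47, 8.28, 7.40, 8.44 and 6.08 in GR. All combination and Pax3GR explants were below background, and the Zic1GR explants lay between those and GR, with 1 of them above the lowest GR value. A fold against a group wholly below log2 4 is a lower bound, with those values set to 4. The gene was at least 10.1-fold lower in the combination and in Pax3GR, and 6.55-fold lower in Zic1GR, than in GR. Since the filter admitted this probe set through its GR values, the test taken is the fit of all probe sets with no filter, in which the adjusted p was 5.83e-07, 2.52e-07 and 0.000228 in those groups.

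Between injected groups the gata5.S level in the combination and in Pax3GR was at least 1.54-fold lower than in Zic1GR (adjusted p = 0.007 and 0.00126 with no filter). Both calls rested on values under background, and with values below log2 4 raised to 4 the difference was -0.73 in each (adjusted p = 0.304 and 0.199). The other copy, gata5.L (Xl2.579.1.S1_at), was listed above log2 4 on 2 GR explants, at 6.03 and 4.74, and on no injected explant, where its highest value was 3.58 in Zic1GR. Those 2 GR explants, replicates 2 and 4, also had the highest gata5.S values.

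The gata6.L probe set Xl2.183.1.S1_at read 9.73, 10.59, 10.77, 10.63 and 9.70 in the combination, 8.01, 7.67, 8.95, 9.12 and 9.08 in Pax3GR, 10.71, 9.41, 9.74, 10.74 and 11.98 in Zic1GR, and 10.29, 10.53, 9.12, 9.96 and 9.35 in GR. Pax3GR was the lowest group, its highest explant just under the lowest GR one, and the other 3 groups overlapped. In Pax3GR the gene fell by 1.29 ± 0.44 (2.44-fold lower, adjusted p = 0.0216), a call lost without Pax3GR replicate 2, GR replicate 1 or GR replicate 2 (adjusted p = 0.0646, 0.0507 and 0.0593). The differences from GR were 0.43 (95% interval from -0.50 to 1.36) in the combination and 0.67 (-0.26 to 1.60) in Zic1GR, with adjusted p = 0.444 and 0.216.

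Against Pax3GR, gata6.L rose by 1.72 in the combination (3.29-fold, adjusted p = 0.0184, or 0.0529 without combination replicate 3), the only one of the 6 probe sets that rose there, where 4.28% of all tested rose and 5.98% fell. In Pax3GR it was lower than in Zic1GR by 1.95 log2 units (3.87-fold, adjusted p = 0.0023). Between the combination and Zic1GR the difference was -0.23 (-1.16 to 0.69).

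The gata6.S probe set Xl2.23009.1.S1_at read 8.48, 8.94, 4.99, 7.92 and 3.52 in the combination, 9.08, 8.52, 9.57, 10.43 and 10.44 in Pax3GR, 6.61, 3.90, 7.29, 6.27 and 7.61 in Zic1GR, and 10.86, 9.99, 9.36, 10.90 and 9.79 in GR. The combination and Zic1GR lay wholly below GR, and Pax3GR overlapped GR. It fell by 3.41 ± 0.90 in the combination (10.7-fold lower, adjusted p = 0.00543) and by 3.85 ± 0.90 in Zic1GR (14.4-fold lower, adjusted p = 0.00201). The difference in Pax3GR was -0.57, with a 95% interval from -2.48 to 1.33 (adjusted p = 0.625).

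Among injected groups gata6.S was 9.65-fold higher in Pax3GR than in Zic1GR (adjusted p = 0.00933). It was the only one of the 6 Gata probe sets higher there. In the combination it differed by -2.84 from Pax3GR, just short of the threshold (adjusted p = 0.054), and passed it in 5 of 20 fits that each left out 1 array. A second gata6.S probe set, Xl2.23009.2.S1_a_at, never passed 3.37 on any array and gave no measure of the gene.

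The gata6 copies were also set against each other within each explant, a view chosen after these values were seen and given as a description with no test. The gata6.S value was subtracted from the gata6.L value, which leaves the unknown probe efficiencies in the level. In a difference between groups they cancel only if both probe sets respond alike to the amount of RNA, which was not tested. In combination replicate 5 and Zic1GR replicate 2 gata6.S was below background, so it was raised to log2 4 and their ratios are lower bounds. This log2 ratio ran from 1.25 to 5.79 in the combination (median 2.71), from -1.35 to -0.62 in Pax3GR (median -1.08), from 2.45 to 5.41 in Zic1GR (median 4.38) and from -0.95 to 0.54 in GR (median -0.44). All combination and Zic1GR explants lay above all Pax3GR and GR explants, and the Pax3GR and GR ranges overlapped.

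**Figure D4:**
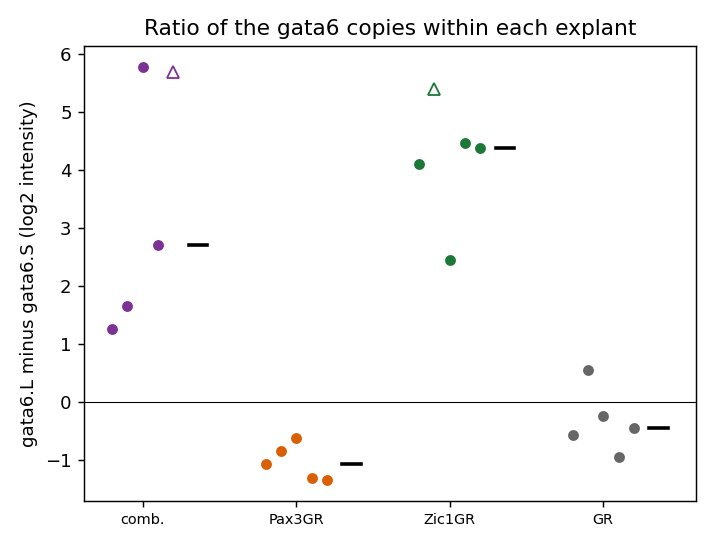
Difference of the gata6.L and gata6.S log2 intensities within each explant (y axis) in the combination (comb.), Pax3GR, Zic1GR and GR, with 1 dot per explant, an open triangle where gata6.S was below log2 4 and the value is a lower bound, and a bar at the median of n = 5. The combination and Zic1GR explants lie at 1.25 or above and the Pax3GR and GR explants at 0.54 or below.

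The remaining probe sets gave no level above background. Those for gata1.L, gata1.S, gata4.L (2 probe sets) and gata4.S (2 probe sets), with the second gata6.S one, stayed below log2 4 on all 20 arrays, between 1.62 and 3.37. The genes gata1, a regulator of red blood cells, and gata4 were thus not measured above background in any group, which does not show that they are absent.

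Markers of the tissues in which these factors are best known were read beside them. Of 35 endoderm genes 28 had a probe set and 9 were tested. Of these, 3 rose and 2 fell in the combination, 1 rose and 2 fell in Pax3GR, and 2 rose and 3 fell in Zic1GR. Of all probe sets tested 24.6%, 27.3% and 28.6% rose and 20.3%, 23% and 22.8% fell in those groups. With 9 genes nothing is read from these counts. Array means of the 28 genes lay between 3.50 and 3.84 in the combination, 3.27 and 3.68 in Pax3GR, 3.03 and 3.28 in Zic1GR, and 3.32 and 3.80 in GR. Of the 28 genes 17 stayed below log2 4 on every array, with the endoderm regulators sox17a.S and mixer.L among them at 1.91 and 2.07 or less, and 11 did not, of which a2m.S reached 13.14, cdx2.L 11.86, hhex.L 10.16 and bix1.1.L 9.23. The homeobox gene hhex.L fell by at least 30.4-fold in the combination, and averaged 3.06 in Pax3GR and 3.56 in Zic1GR, against 8.93 in GR. Its averages in all injected groups were below log2 4. It may thus have passed the filter only through GR, in which case its fall was built in. The forkhead gene foxa2.L rose by at least 17.8-fold in the combination. It passed the filter only through that group, so its rise was built in. In Zic1GR cdx2.L fell by at least 29.5-fold and foxa1.S fell by 4.004, and in Pax3GR vegt.L rose by 3.77 and a2m.S fell by 2.34.

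Of 17 heart genes on the array 7 were tested. Of these, 1 rose and 4 fell in the combination, 2 rose and 4 fell in Pax3GR, and 1 rose and 1 fell in Zic1GR. The shares of all probe sets tested were 24.6%, 27.3% and 28.6% for rises and 20.3%, 23% and 22.8% for falls. With 7 genes nothing is read from these counts. Of the 17 heart genes 7 stayed below log2 4 on every array, with tnnt2.L, tnni3.L, tbx5.L and tbx20.L among them at 2.45 or less, and 10 did not, of which isl1.S averaged 11.08 in the combination, 11.63 in Pax3GR, 13.89 in Zic1GR and 13.57 in GR, nkx2-5.S reached 7.01 and nppa.S reached 8.30. The homeobox gene nkx2-3.L was at least 53.3-fold lower in the combination and in Pax3GR. In Pax3GR the muscle genes myh6.S and mef2c.L rose by at least 7.52-fold and 12.16-fold, and in Zic1GR tnnc1.L rose by at least 9.97-fold. In the other groups myh6.S averaged 2.65 or less and tnnc1.L 3.24 or less. Both passed the filter through the group in which they rose, so the rises of myh6.S and tnnc1.L were built in. Array means of the list ran from 2.81 to 3.18 in the combination, 3.26 to 3.65 in Pax3GR, 3.58 to 4.29 in Zic1GR and 3.60 to 4.31 in GR.

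Of 24 blood genes on the array 7 were tested, with 1 fall in the combination, 1 rise and 4 falls in Pax3GR, and 1 rise and 3 falls in Zic1GR. Among all probe sets tested 24.6%, 27.3% and 28.6% rose and 20.3%, 23% and 22.8% fell in those groups, and with 7 genes nothing is read from the counts. The transcription factor gene cebpa.L fell by 8.12 in the combination, fell by 7.55 in Pax3GR and fell by 2.58 in Zic1GR. Of the 24 blood genes 14 stayed below log2 4 on every array, with the erythroid enzyme gene alas2.S and the haematopoietic factor tal1.S among them at 2.24 or less. The other 10 did not, and the globin gene hba-l5.L averaged 12.48 in the combination, 12.86 in Pax3GR, 11.40 in Zic1GR and 13.36 in GR. The blood regulator gfi1b.L averaged 6.05 in GR and under 2 in each injected group, and hbg1.L reached 8.88. What part endoderm, heart or blood cells had in the Gata levels was not tested.

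Of 23 genes for known partners of Gata proteins 18 had a probe set and 9 were tested, of which 2 rose and 3 fell in the combination, 3 rose and 2 fell in Pax3GR, and 4 rose and 2 fell in Zic1GR, with medians of -0.0042, 0.15 and 0.24. The called shares of 55.6%, 55.6% and 66.7% stand beside 44.8%, 50.3% and 51.4% of all probe sets tested, and with 9 genes nothing is read from them. The heart and limb factor hand2.S, which acts with gata4 in mouse heart, averaged 2.06 in the combination, 1.99 in Pax3GR and 4.02 in Zic1GR, against 8.65 in GR. It was at least 25-fold lower in the combination and in Pax3GR, and fell by 4.62 in Zic1GR, and it is counted among the heart genes too. It passed the filter only with its GR values, so these falls were built in. The basic helix-loop-helix gene tcf12.S rose by 2.26 in the combination, 2.86 in Pax3GR and 1.52 in Zic1GR. The LIM-only gene lmo1.S rose by at least 9.81-fold in Zic1GR. It averaged 4.23 in Pax3GR and 2.41 in the combination, and passed the filter only with its Zic1GR values, so its rise was built in. Not called were sp1.L, at 13.88 in the combination and 13.92 in Pax3GR, against 13.78 in GR, and ldb1.L, at 13.87 in Zic1GR, against 13.64 in GR.

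The 5 genes with the most similar pattern to each Gata gene were found by Pearson correlation of log2 values over the 20 arrays, which share the 4 groups, and are given as a description. The gene most like gata2.L (Xl2.792.1.S1_a_at) was gata3.S (0.942), followed by srp68.L (0.935), iqgap1.L, lrrc1.S and ada.S. A correlation does not depend on the size of a change, and the group averages of srp68.L ran only from 12.89 to 13.06. For gata3.S (Xl2.793.1.S1_at) the most alike were the BMP ligand gene bmp7.2.L (0.96), anxa2.S, pdgfa.S, lrrc1.S and lmo4.2.S, from 0.956 down to 0.949. For gata5.S they were cavin1.L (0.945), slc35a2.S, tesk1.L, hspb7.L and efnb3.L (0.933). Like gata5.S, which passed the filter through GR, these genes averaged highest in GR. Of them cavin1.L and tesk1.L averaged below log2 4 in every injected group, against 7.34 and 9.32 in GR. In Zic1GR slc35a2.S, hspb7.L and efnb3.L averaged 5.14, 5.66 and 4.27. Such a likeness can rest on levels above background in GR, and nothing is read from it.

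No gene was listed for both gata6 copies, and with lists this short nothing is read from that. The gata6.L and gata6.S values themselves correlated at -0.237 over all arrays, and at 0.469 after group means were taken out. For gata6.L the closest were smad2.L (0.803), anapc10.S, senp8.L, psenen.L and mmgt1.L (0.738). For gata6.S they were the BMP type I receptor gene acvr1.L (0.907), the chemokine receptor gene cxcr4.L (0.889), cenpv.L, prag1.S and slc27a6.L (0.851). With group means taken out gata6.S and cxcr4.L correlated at 0.829, which is no independent check, since cxcr4.L was picked on the same arrays. Over all genes listed for the Gata genes this value ran from 0.270 (efnb3.L with gata5.S) to 0.874 (lrrc1.S with gata3.S). The cxcr4.L probe set averaged 10.19 in the combination, 13.24 in Pax3GR, 10.04 in Zic1GR and 12.24 in GR.

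Non-additivity set the combination's difference from GR against both single-factor differences added up in log2 units. Of the 6 probe sets 1 was called, higher than the sum, where 17% of all tested were higher and 19.6% lower. It was gata2.L Xl2.792.1.S2_at, at 6.99 in the combination against a sum of 4.61. For gata5.S the sum was -0.43, a level below anything the array reported, so no measured level can be set against it. The gata2.L call (2.38 ± 0.84, adjusted p = 0.0341) was lost in 12 of 20 fits that each left out 1 array and without the filter (adjusted p = 0.0518), and the other gata2.L probe set gave 0.31 ± 0.81 (adjusted p = 0.789). For gata3.S the values were 0.97 and 2.54 (adjusted p = 0.452 and 0.0818, the second passing without Pax3GR replicate 1 or combination replicate 4, at 0.00671 and 0.0102), and for gata6.L and gata6.S 1.05 and 1.01 (adjusted p = 0.197 and 0.563, the first 0.0478 without Zic1GR replicate 5).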

How the data were processed

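Each of 20 arrays measured 100 ng of total RNA from a single explant. The authors deposited log2 intensities, 1 per probe set. GCRMA and Partek are named, per the submitters' processing notes, with neither version nor order. The reference level of that normalization is not given in the sources used here. The 96 control probe sets were left out. The platform annotation names a single gene for 15495 probe sets, and the gene identifiers of all 15 Gata probe sets matched the same symbols in the reference table.

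The 20519 probe sets that reached log2 4 on 5 or more arrays entered a linear model of all 20 arrays with a mean for each group (lmFit and eBayes of limma 3.58.1, run under R 4.3.3). Adjusted p is Benjamini-Hochberg over all of them, with a threshold of 0.05, in 7 comparisons. The fit was tested on simulated data that had the same spread in all 4 groups, so that test does not cover spreads that differ between groups. The number of arrays limits the precision. Probes of the .L and .S copies may cross-hybridise, which was not tested.

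There were 12 gene lists (Gata partners, ventral and non-neural ectoderm regulators, epidermis, ionocytes, multiciliated cells, mucus-secreting cells, neural plate, neural crest, mesoderm, endoderm, heart and blood). Where several probe sets report a gene, the brightest on average stood for it. List members that passed the filter only through the arrays of a single group, GR or another, were not set apart in the counts. Named per list and comparison were at most 3 called genes, those ranking first by adjusted p, and the brightest gene without a call, and for each Gata gene the 5 most alike. Genes of the endoderm, heart and blood lists named by their highest value or as low on every array, gfi1b.L and cxcr4.L's levels were chosen after their values were seen. So were the ionocyte genes foxi1.L, ubp1.L and atp6v1g3.L, named for their low averages outside GR. Members and lists were chosen with earlier results of these data known. The gata6 ratio was looked at after the values were seen. Whether replicate numbers mark shared clutches is not given in the sources used here. Same-numbered pairs correlated above 0.1 in 0 to 3 of 5 pairs per comparison (highest 0.466). The numbers were not used as pairs, and these correlations cannot settle whether clutches were shared. Alternatives covered filters, scalings, low values, variance model, array weights, fitted groups, replicate block and arrays left out.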

Additional observations from a re-analysis of the deposited data

Results flagged for a closer look

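The combination's difference from GR was flagged against the sum of the single-factor differences for gata2.L Xl2.792.1.S2_at and gata5.S. For gata2.L it lay 2.38 log2 units above that sum (limma adjusted p = 0.0341). This call was lost in 12 of 20 fits that each left out 1 array and without the filter (adjusted p = 0.0518), and the other gata2.L probe set gave 0.31 (adjusted p = 0.789). For gata5.S Xl2.578.1.S1_at it lay 2.94 above a sum of -0.43 (limma adjusted p = 0.00392 with no filter). Since no array value is that low, a level above the sum was fixed in advance. The size has no measured meaning, and nothing is read from this flag. No explant lay apart from the rest of its group by Dixon's test at the 95% level (critical value 0.71) in any of the 28 sets of 5 values for the tested Gata probe sets.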

How the results depend on the processing

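Against GR, the calls for both gata2.L and both gata3.S probe sets in the combination and Pax3GR, for gata5.S in all 3 injected groups and for gata6.S in the combination and Zic1GR kept their direction and their side of the threshold under every alternative in which they were tested. Outside the fit with no filter, gata5.S passed through the group in which it is highest, so its kept calls add no support. With array weights, the Zic1GR differences from GR of gata2.L became -1.12 and -1.20 and those of gata3.S -1.14 and -1.45, all called. From the arrays of those groups alone they were -0.995, -0.95, -0.91 and -1.24, also called. With the array least like its group left out of all 4 groups, an alternative added after the data were seen, gata2.L Xl2.792.1.S2_at (-1.10) and gata3.S Xl2.28002.1.A1_at (-1.08) were called there. At a threshold of 0.01 the gata6.L fall of -1.29 in Pax3GR was not called. Leaving out single arrays moved that value between -1.47 and -1.06, and the Zic1GR value of gata2.L Xl2.792.1.S1_a_at between -1.08 and -0.83, called without combination replicate 4.

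Sign changes concerned differences that were not called. The gata3.S Xl2.793.1.S1_at difference of the combination from Pax3GR became 0.11 with array weights and 0.65 without the 4 least typical arrays, and ran from -0.91 to 0.44 with single arrays left out. The combination against Zic1GR gave 0.046 for gata6.L without those 4 arrays, and with single arrays left out from -0.51 to 0.13 for gata6.L and from -0.18 to 1.24 for gata6.S. The non-additivity of gata2.L Xl2.792.1.S1_a_at ran from -0.077 to 0.98.

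Counts of probe sets called moved by more than 1.5 times as follows. The combination against Pax3GR had 2106, and 4914 with array weights, 4311 without the 4 least typical arrays, 888 at a threshold of 0.01, 787 from its own arrays, and 1226 to 3038 with single arrays left out. Pax3GR against Zic1GR had 7037, and 10913 with array weights and 4516 at 0.01. At 0.01 the combination against Zic1GR had 1501 in place of 2728, and non-additivity 4238 in place of 7510. The cause was not tested, and fewer calls follow from the stricter threshold itself. With replicate number as a block 10264, 10513 and 9136 probe sets differed from GR in Pax3GR, Zic1GR and the combination, and no Gata call against GR changed.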

Other observations

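Neural plate, neural crest and mesoderm markers had more rises than falls, as did all probe sets tested. Of the latter 24.6%, 27.3% and 28.6% rose and 20.3%, 23% and 22.8% fell in the combination, Pax3GR and Zic1GR. Neural plate markers (19 tested) had 8 rises and 4 falls in the combination, 14 rises and 1 fall in Pax3GR, and 13 rises and 0 falls in Zic1GR, against GR by limma. Their array means ran from 6.14 to 7.54 in the combination, 7.95 to 8.96 in Pax3GR and 7.79 to 8.63 in Zic1GR, against 5.80 to 6.06 in GR. Neural crest markers (15 tested) had 10, 9 and 11 rises in those groups, with 0, 2 and 0 falls. Their array means were highest in combination replicate 4, at 10.76, the explant with the lowest gata2.L and gata3.S. Combination replicate 5, the highest of its group in both genes, had 10.36, and replicates 1 and 2 had 9.63 and 9.73. A link between neural crest markers and the Gata levels was not tested. Mesoderm markers (12 tested) had 9, 10 and 8 rises and no falls. On all GR arrays 18 of 22 mesoderm, 9 of 21 neural plate and 6 of 17 neural crest genes stayed below log2 4. Those of them that were tested passed the filter only through injected groups, so their rises were built in. The markers were not recounted without such members, and nothing is read from the counts of these 3 lists.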
